A study of Homo sapiens with 26 samples.

Results

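MILR1, FA2H, WNT5A, EIF4E1B, RNGTT and CDC42EP3 are 6 of the 58592 genes measured in a series on B cell lymphoma lines in which the transcription factor gene POU2F2 or its partner POU2AF1 was silenced. They were chosen by their measured expression, which was higher in the OCI-Ly7 POU2F2 knockdown libraries than in the OCI-Ly7 POU2AF1 knockdown libraries, and that difference describes the choice and is no finding. The choice was made from earlier results of these data, with no numeric threshold. The same genes in SUDHL4, a second line that the choice did not use, are tested further on.

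Both lines come from diffuse large B cell lymphoma of germinal centre type. Each carried dCas9-BFP-KRAB, a cutting-dead Cas9 fused to a blue fluorescent protein and the KRAB repressor domain, which was brought in by lentivirus and driven by the SFFV promoter. All groups, the controls included, thus share that repressor and a lentiviral gRNA. The gRNA was aimed at POU2F2, at POU2AF1 or, in the control, at no target. Polyadenylated RNA was sequenced with a stranded paired-end protocol. OCI-Ly7 grew in 80% Iscove's medium with 20% serum and SUDHL4 in 90% RPMI-1640 with 10% serum, and the growth medium cannot be told apart from the line.

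The 26 deposited files gave 22 libraries once repeated files were merged. OCI-Ly7 had 8 POU2F2 knockdown, 6 POU2AF1 knockdown and 4 control libraries, and SUDHL4 had 2, 1 and 1. The labels name 2 batches. All 8 OCI-Ly7 POU2F2 knockdown libraries are of batch 2, the POU2AF1 knockdown is split into 4 of batch 1 and 2 of batch 2, and the control into 1 and 3. All SUDHL4 libraries are of batch 1. The labels also give a series mark, unexplained there, to every batch 2 library but POU2F2 knockdown replicate 3. A time of 48 h is given for that library and for 2 batch 1 files, POU2AF1 knockdown replicate 3 and control file 3, and no time for the others. The fits use batch as their term, and a fit with the series mark in its place is given where it changes a call. Files held 24959865 to 53155548 estimated reads, and mitochondrial genes took 7.043% to 25.82% of them, the highest share being that of OCI-Ly7 POU2AF1 knockdown replicate 1. Separate cultures are not stated for the replicates, and p-values therefore cover the spread between these libraries alone. Nor is it stated whether a line is 1 clone.

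POU2F2 encodes OCT2, a B cell transcription factor that binds the octamer motif ATGCAAAT. POU2AF1 encodes OCA-B, a coactivator without DNA binding of its own, which joins OCT2 or the widely expressed OCT1 on octamer DNA and is needed for germinal centres in mice. The 6 genes have unlike functions. RNGTT is the mRNA capping enzyme and EIF4E1B is a cap-binding relative of the initiation factor eIF4E known from the oocytes of frogs and fish. MILR1, also called Allergin-1, is an inhibitory immunoglobulin-like receptor described in mast cells, WNT5A is a secreted ligand of the non-canonical WNT pathway, FA2H hydroxylates the fatty acids of sphingolipids, and CDC42EP3 is a binding partner of the small GTPase CDC42 and of septins.

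Promoter sequences are shown because both targeted proteins act at octamers. RefSeq windows on GRCh38.p14, from 250 bases before to 50 after a gene's start, were at hand for 5 of the 6 genes, 8 windows in all, and MILR1 was not in that table. The octamer, searched as ATGCAAAT on both strands, was in 1 of the 8 windows, that of FA2H, against 1.77% of all 35116 RefSeq windows. The first sequence has that octamer, 61 to 54 bases before the start, and a CCAAT box in capitals, the second has its GGGCGG boxes in capitals, and the third, around the annotated start of the leading CDC42EP3 transcript, has none of the 4 motifs searched.
FA2H, chr16:74774771-74775070, minus strand: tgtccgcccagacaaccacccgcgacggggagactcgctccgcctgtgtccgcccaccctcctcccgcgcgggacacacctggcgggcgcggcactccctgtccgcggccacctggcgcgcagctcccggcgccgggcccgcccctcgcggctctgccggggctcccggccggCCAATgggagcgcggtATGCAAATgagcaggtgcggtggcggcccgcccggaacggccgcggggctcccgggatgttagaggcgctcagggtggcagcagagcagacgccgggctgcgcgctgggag
RNGTT, chr6:88963569-88963868, minus strand: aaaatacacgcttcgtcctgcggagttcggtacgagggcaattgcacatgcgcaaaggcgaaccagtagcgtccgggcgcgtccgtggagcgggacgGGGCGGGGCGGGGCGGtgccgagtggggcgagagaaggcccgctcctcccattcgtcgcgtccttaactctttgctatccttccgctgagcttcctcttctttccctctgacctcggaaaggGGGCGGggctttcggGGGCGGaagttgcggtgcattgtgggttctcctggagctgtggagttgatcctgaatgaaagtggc
CDC42EP3, chr2:37672170-37672469, minus strand: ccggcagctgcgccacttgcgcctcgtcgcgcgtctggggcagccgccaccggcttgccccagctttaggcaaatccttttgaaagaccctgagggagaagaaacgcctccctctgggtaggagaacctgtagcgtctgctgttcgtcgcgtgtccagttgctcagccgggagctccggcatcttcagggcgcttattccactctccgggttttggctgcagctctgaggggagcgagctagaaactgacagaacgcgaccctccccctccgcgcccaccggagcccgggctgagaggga
CCAAT was in 34.6% of all windows, GGGCGG in 45% and TATAAA in 11.5%, each searched on both strands. GGGCGG occurred 4 times in the FA2H window, 5 times in that of RNGTT and 3 times in that of EIF4E1B, once in 1 of the 2 WNT5A windows and 2 times in 1 of the 3 CDC42EP3 windows. No window of the 5 genes held TATAAA. The RNGTT repeats overlap each other by 1 base in one run of 3. A match of letters is a description, and no binding was measured here.

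The targeted genes were read first. POU2AF1 was at 398 to 535 CPM (read counts over the library size, scaled by TMM) in the OCI-Ly7 POU2F2 knockdown (median 446), at 27.3, 42.2, 31.6, 29.8, 87.9 and 81.4 CPM in the POU2AF1 knockdown replicates 1 to 6, and at 445, 455, 446 and 470 CPM in the controls. Its fitted log2 change in the POU2AF1 knockdown against control was -3.00 ± 0.19 (SE; edgeR, p adjusted by Benjamini-Hochberg = 2.0e-07). A gene is called here when that adjusted p is under 0.05. POU2F2 was at 55.7 to 148 CPM in the POU2F2 knockdown, 183 to 376 CPM in the POU2AF1 knockdown and 207 to 407 CPM in the controls, and its log2 change in the POU2F2 knockdown against control was -1.57 ± 0.24, which missed the threshold (adjusted p = 0.056). It was called with the series mark as a block (-1.73 ± 0.18, adjusted p = 0.0022), where 0.0812% of genes were, and with all libraries in 1 fit (-1.57 ± 0.23, adjusted p = 0.034). In POU2AF1 knockdown replicate 1, the library with the highest mitochondrial share, POU2F2 was at 45% of the batch 1 control. The knockdowns differed in depth. POU2F2 was left at 34.5% of the batch 2 control mean, and POU2AF1 at 7.35% of the batch 1 control and 18.5% of the batch 2 control mean. The part that this difference in depth has in the values below was not tested.

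In OCI-Ly7 all 6 genes were lower in each POU2AF1 knockdown library than in any POU2F2 knockdown or control library, while their POU2F2 knockdown and control values overlapped. Of all genes tested 1.76% were likewise lower without overlap in the POU2AF1 knockdown than in control. The values by gene follow, each on the CPM scale.

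RNGTT, on chromosome 6 (88610272 to 88963721 on GRCh38, minus strand, ENSG00000111880), caps the 5′ end of nascent mRNA. It had 62.1 to 101 CPM in the POU2F2 knockdown (median 80.6), 42.5 to 53.5 CPM in the POU2AF1 knockdown (median 51.3) and 95.9, 82.4, 75.3 and 75.2 CPM in the controls. The group means were 80.4 ± 12, 49.4 ± 4.2 and 82.2 ± 9.7 CPM (SD, n = 8, 6 and 4). The POU2AF1 knockdown libraries form the low group, with no overlap, and its fitted level was 1.73-fold lower than in control.

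EIF4E1B, on chromosome 5 (176630618 to 176646641, plus strand, ENSG00000175766), is the member of the eIF4E family named above. It had 1.25 to 3.48 CPM in the POU2F2 knockdown (median 2.34), 0.293 to 0.768 CPM in the POU2AF1 knockdown (median 0.485) and 3.48, 3.55, 2.38 and 3 CPM in the controls. These levels rest on 36 to 159, 11 to 27 and 74 to 184 reads a library. Its fitted level was 5.56-fold lower in the POU2AF1 knockdown than in control, beside 5.46-fold for FA2H, and these folds differ by less than their errors.

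MILR1, on chromosome 17 (64449037 to 64468643, plus strand, ENSG00000271605), is the receptor gene. It had 66.7 to 81.7 CPM in the POU2F2 knockdown (median 76.6), 15.4 to 44.5 CPM in the POU2AF1 knockdown (median 19) and 62.1, 80.5, 76.8 and 83 CPM in the controls. The 2 batch 2 POU2AF1 knockdown libraries, at 32.9 and 44.5 CPM, lay above the 4 of batch 1, at 15.4 to 21.9 CPM. The mast cell markers KIT, TPSAB1, CPA3, FCER1A and MS4A2 together reached at most 0.222 TPM, the measure that also divides by transcript length, in any library.

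WNT5A, on chromosome 3 (55465715 to 55490539, minus strand, ENSG00000114251), encodes the secreted ligand. It had 8.51 to 13.2 CPM in the POU2F2 knockdown (median 10.2), 1.62 to 5.44 CPM in the POU2AF1 knockdown (median 3.28) and 14.6, 8.13, 11.9 and 12 CPM in the controls. Its fitted level was 3.45-fold lower in the POU2AF1 knockdown than in control, and no library of that group reached the lowest of the other groups.

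FA2H, on chromosome 16 (74712955 to 74774831, minus strand, ENSG00000103089), is the 2-hydroxylase. It had 1.28 to 2.4 CPM in the POU2F2 knockdown (median 1.78), 0.133 to 0.462 CPM in the POU2AF1 knockdown (median 0.379) and 2.75, 1.64, 1.67 and 1.47 CPM in the controls. These are 38 to 106, 5 to 22 and 45 to 145 reads a library, so FA2H is the thinnest of the measurements. The batch 1 control, at 2.75 CPM, stood above the 3 of batch 2.

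CDC42EP3, on chromosome 2 (37641882 to 37738468, minus strand, ENSG00000163171), links CDC42 to the septin cytoskeleton. It had 14.1 to 20.8 CPM in the POU2F2 knockdown (median 17), 7.94 to 10.8 CPM in the POU2AF1 knockdown (median 9.67) and 18.6, 18.6, 17.3 and 15.5 CPM in the controls. Its means were 17.3 ± 2.4, 9.5 ± 1 and 17.5 ± 1.5 CPM (SD, n = 8, 6 and 4), and the low group again held all POU2AF1 knockdown libraries and no other.

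**Figure D1:**
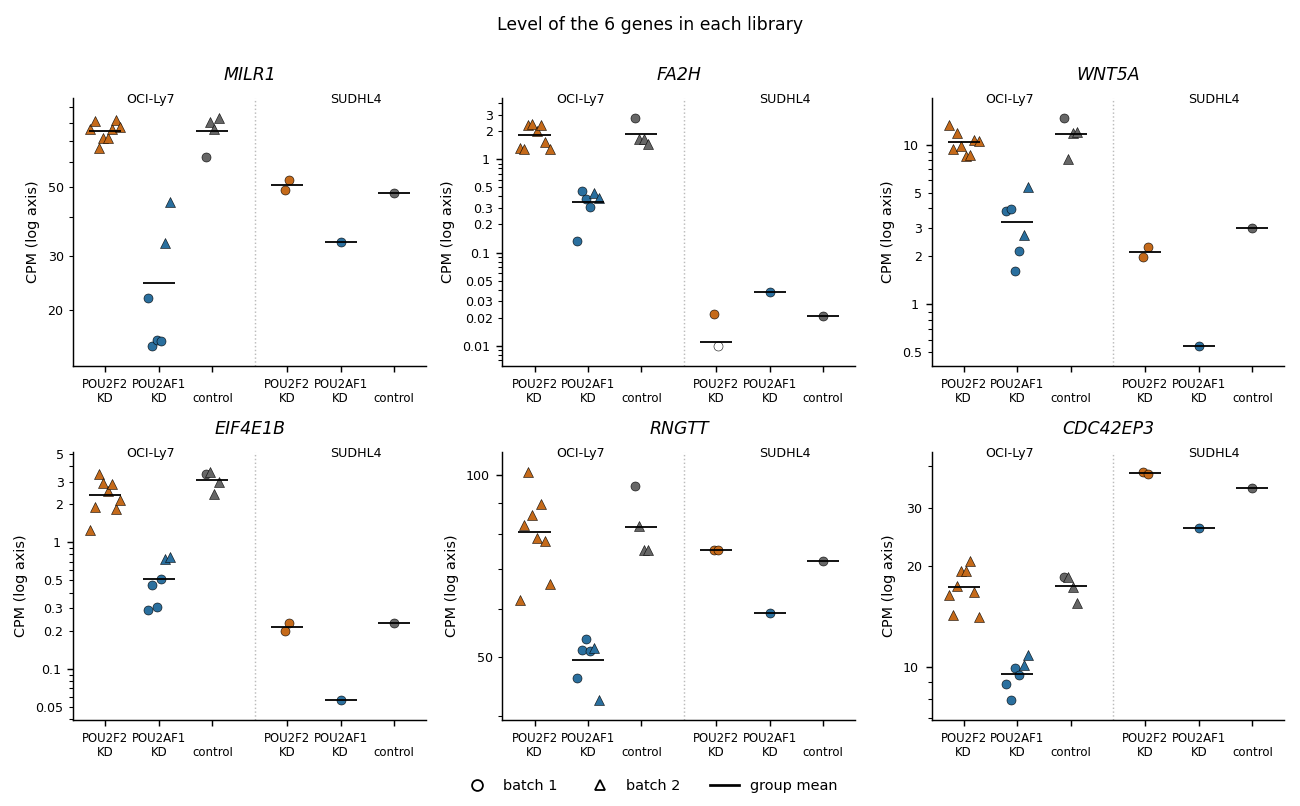
Level of each gene in each library in CPM on a log axis, with groups side by side for OCI-Ly7 (left of the dotted line) and SUDHL4 (right), circles for batch 1, triangles for batch 2 and bars for group means; the open circle is a library with 0 FA2H reads, drawn at 0.01. In every panel the OCI-Ly7 POU2AF1 knockdown points lie below the other OCI-Ly7 points, for example CDC42EP3 at 7.94 to 10.8 CPM.

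The fitted difference of POU2F2 knockdown over POU2AF1 knockdown in OCI-Ly7, the contrast of the choice, was 2.45 ± 0.36 on the log2 scale (SE) for FA2H, 1.95 ± 0.32 for EIF4E1B and 1.57 ± 0.29 for WNT5A. MILR1 was at 1.15 ± 0.15, RNGTT at 0.81 ± 0.13 and CDC42EP3 at 0.80 ± 0.14, the lowest of the 6. All 6 passed the adjusted threshold of 0.05 in a contrast where 0.162% of the 16001 genes tested did, and their groups do not overlap, as those of 0.644% of genes did in that direction. In batch 2 alone, and likewise without the batch 1 control, 1 of the 6 passed, where 4 and 3 of all genes tested did. Nothing is read from these counts, since the contrast chose the genes.

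The comparisons of each knockdown with control share libraries with that contrast and are given as description too. In the POU2AF1 knockdown against control the log2 changes were -2.47 ± 0.3 for EIF4E1B, -2.45 ± 0.32 for FA2H, -1.79 ± 0.27 for WNT5A, -1.37 ± 0.14 for MILR1, -0.84 ± 0.13 for CDC42EP3 and -0.79 ± 0.13 for RNGTT. Their median was -1.58, beside -0.004 over all genes tested, and 0.887% of genes were called there, 0.606% as lower. In the POU2F2 knockdown against control the same genes had -0.52 ± 0.28, -0.00 ± 0.26, -0.22 ± 0.26, -0.22 ± 0.14, -0.04 ± 0.12 and 0.02 ± 0.12, a median of -0.13. None of the 6 was called there by edgeR and none had an unadjusted p under 0.05 in the fit with batch, in a comparison with 0% of genes called, 283 genes at an unadjusted p under 0.05, and 5 genes called by DESeq2.

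A missing call does not show that POU2F2 knockdown left these genes as they were. The 95% intervals of the log2 change ran from -1.12 to 0.07 for EIF4E1B (-1.04 to -0.09 with the series mark as a block, unadjusted p = 0.022 and adjusted p = 0.54 by edgeR), from -0.76 to 0.33 for WNT5A, from -0.56 to 0.55 for FA2H and from -0.51 to 0.07 for MILR1. For RNGTT the interval was -0.23 to 0.27 and for CDC42EP3 it was -0.30 to 0.22.

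**Figure D2:**
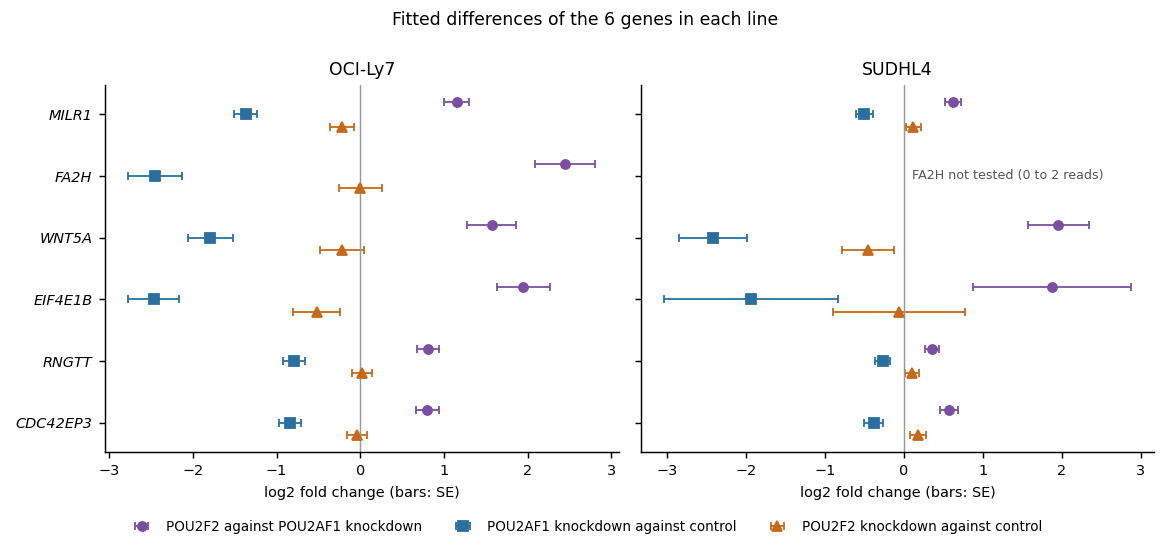
Fitted log2 fold changes of the 6 genes (points, with bars of 1 SE) for POU2F2 over POU2AF1 knockdown, POU2AF1 knockdown over control and POU2F2 knockdown over control, with OCI-Ly7 in the left panel and SUDHL4 in the right one. In both panels each tested gene has its POU2AF1 knockdown point left of 0 and its POU2F2 over POU2AF1 point right of 0, and the right panel has no FA2H.

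Within each batch every gene had its lowest mean in the POU2AF1 knockdown. As a percentage of the same-batch control mean, the POU2AF1 knockdown left FA2H at 11.6% in batch 1 and 25.7% in batch 2, EIF4E1B at 11.3% and 25.3%, WNT5A at 19.8% and 38.3%, MILR1 at 27.9% and 48.3%, CDC42EP3 at 48.6% and 61%, and RNGTT at 52.7% and 60.7%. In the POU2F2 knockdown, which batch 2 alone holds, the levels were 114%, 79.6%, 96.8%, 94.4%, 101% and 104% in that order of genes. Each gene was thus nearer to its control in batch 2, where POU2AF1 itself was left higher. Batch 1 has 1 control library, and batch and knockdown depth cannot be told apart within the POU2AF1 knockdown.

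**Figure D3:**
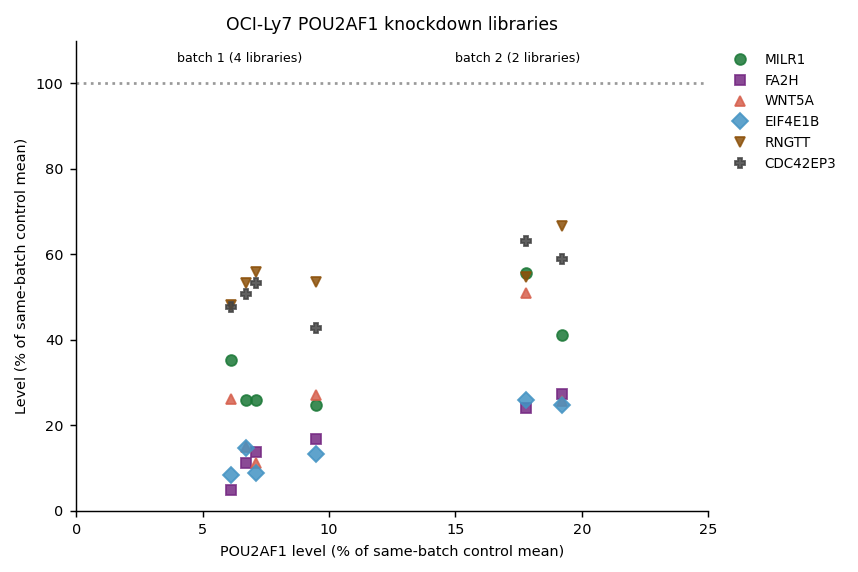
Level of each gene (y axis) and of POU2AF1 (x axis) in the 6 OCI-Ly7 POU2AF1 knockdown libraries, both in percent of the same-batch control mean, with 1 symbol per gene and the dotted line at 100%. The 4 batch 1 libraries have POU2AF1 at 6.13% to 9.48% and the 2 of batch 2 at 17.8% and 19.2%, and all points lie under 100%, up to 66.7% for RNGTT.

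SUDHL4 gives libraries that the choice did not use. Of the 6 genes 5 could be tested, FA2H being all but silent there, and 4 of them, WNT5A, MILR1, CDC42EP3 and RNGTT, were higher in the POU2F2 knockdown than in the POU2AF1 knockdown and lower in the POU2AF1 knockdown than in control. These calls come from a fit of the 4 SUDHL4 libraries with 1 residual degree of freedom, in which the lone POU2AF1 knockdown and control libraries are taken to vary like the POU2F2 knockdown pair. None of the 5 was called in either comparison when all 22 libraries were fitted together, so the calls rest on that assumption. In that joint fit 0.196% and 1.66% of 18918 genes were called in the 2 comparisons, 1.11% as higher in the POU2AF1 knockdown. In the SUDHL4 fit 26.2% of 16973 genes were called between the knockdowns, 13.8% as higher, and 36.8% between the POU2AF1 knockdown and control, 18.8% as lower.

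WNT5A had 1.97 and 2.28 CPM in the SUDHL4 POU2F2 knockdown, 0.55 CPM in the POU2AF1 knockdown and 3 CPM in the control, from 89, 99, 29 and 144 reads. Its log2 difference was 1.96 ± 0.39 for POU2F2 over POU2AF1 knockdown (SE; edgeR adjusted p = 2.4e-04, and 0.23 with all libraries). Against control the POU2AF1 knockdown was at -2.42 ± 0.43 (adjusted p = 2.5e-05, and 0.054 with all libraries). The sizes stood beside 1.57 and -1.79 in OCI-Ly7, and whether the lines differ in them was not tested.

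MILR1 had 48.7 and 52.6 CPM in the SUDHL4 POU2F2 knockdown, 33.2 CPM in the POU2AF1 knockdown and 47.7 CPM in the control. The receptor gene was higher by 0.62 ± 0.1 on the log2 scale in the POU2F2 than in the POU2AF1 knockdown (edgeR adjusted p = 1.1e-05, and 0.58 with all libraries), and at -0.50 ± 0.11 in the POU2AF1 knockdown against control (adjusted p = 5.5e-04, and 0.54). The POU2AF1 knockdown library was the lowest of the 4.

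CDC42EP3 had 38.3 and 37.9 CPM in the SUDHL4 POU2F2 knockdown, 26 CPM in the POU2AF1 knockdown and 34.3 CPM in the control. Its log2 difference between the knockdowns was 0.57 ± 0.11 (edgeR adjusted p = 9.3e-05, and 0.55 with all libraries) and that of the POU2AF1 knockdown from control was -0.38 ± 0.12 (adjusted p = 0.011, and 0.63). RNGTT, at 75.1 and 75.3, 59.1 and 72 CPM in the same order, had 0.36 ± 0.091 (adjusted p = 0.0026, and 0.91) and -0.27 ± 0.1 (adjusted p = 0.041, and 0.78). By DESeq2 neither RNGTT nor CDC42EP3 was called in the POU2AF1 knockdown against control.

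EIF4E1B was near the limit of detection in SUDHL4. It had 9 and 10 reads in the POU2F2 knockdown, 3 in the POU2AF1 knockdown and 11 in the control. The POU2AF1 knockdown count lay under the minimum count of 10, so the gene passed the filter through the other groups. The values that follow for EIF4E1B are a description, and nothing is read from them. Its level in the POU2F2 knockdown was 3.77 times that in the POU2AF1 knockdown (exact 95% interval 1.11 to 19.9, for counting error only). Relative to control the POU2AF1 knockdown level was 0.249 times as high (interval 0.0445 to 0.941). Neither difference passed the edgeR test, at adjusted p = 0.2 and 0.19.

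FA2H had 1 and 0 reads in the SUDHL4 POU2F2 knockdown, 2 in the POU2AF1 knockdown and 1 in the control. A count of 0 in a library of that depth allows up to 3 reads, or 0.0692 CPM. The counts of every SUDHL4 group are at or under that floor, so the SUDHL4 groups are not compared with each other for FA2H. The hydroxylase gene did not pass the filter on low counts in that line.

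In the SUDHL4 POU2F2 knockdown against control none of the 5 genes was called by edgeR or DESeq2 and none had an unadjusted p under 0.05, where 7.35% of all genes were called. The log2 values were 0.18 ± 0.1 for CDC42EP3, 0.12 ± 0.097 for MILR1, 0.10 ± 0.09 for RNGTT, -0.06 ± 0.84 for EIF4E1B and -0.46 ± 0.33 for WNT5A. The 95% intervals were -0.03 to 0.39, -0.08 to 0.32 and -0.09 to 0.28 for the first 3 genes, -1.77 to 1.65 for EIF4E1B and -1.13 to 0.20 for WNT5A. POU2F2 itself was at 43.5 and 55.3 CPM in that knockdown, 496 CPM in the POU2AF1 knockdown and 330 CPM in the control, and POU2AF1 was at 539 and 502, 79.8 and 442 CPM.

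The control cells of the lines were set against each other in the fit of all libraries, where 23.5% of genes were called, 11% as higher in OCI-Ly7 and 12.5% as lower. By edgeR EIF4E1B was 3.44 higher on the log2 scale in OCI-Ly7 than in SUDHL4. Its counting ratio was 13.8, with an exact 95% interval of 7.63 to 27.8. WNT5A was higher by 1.87 (adjusted p = 0.014), a call that was lost without the batch 1 OCI-Ly7 control (1.34, adjusted p = 0.13), and CDC42EP3 was lower, at -1.03 (adjusted p = 0.0015). FA2H had 291 reads over the 4 OCI-Ly7 controls and 1 read in the SUDHL4 control, which is under the floor of 3 reads. The ratio was 96.8 with a counting interval of 17.2 to 3835, given as a description only. In the fit of all libraries FA2H and EIF4E1B passed the filter on low counts through OCI-Ly7 alone, and no p is given for either. The SUDHL4 control is 1 library, and the spread behind these adjusted p-values is that of the other groups. MILR1, at 0.03 (adjusted p = 0.96), and RNGTT, at 0.32 (0.36), were not called. RNGTT was called with the series mark as a block, at 0.35. It was also called with every file as its own library, at 0.39. That setting counts repeated files of 1 library as replicates, so nothing is read from its call.

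Per length, in OCI-Ly7 control cells, MILR1 had 104 ± 7.9 TPM, RNGTT 28.9 ± 1.6 TPM and CDC42EP3 9.76 ± 0.49 TPM (SD, n = 4). WNT5A followed at 3.16 to 5.7 TPM, FA2H at 2.01 to 4.13 TPM and EIF4E1B at 1.33 to 3.22 TPM. The first 3 genes are separated by far more than their spread, and the last 3 overlap each other.

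Transcript estimates show which annotated forms carry each gene. Of the transcripts listed for the 6 genes, RNGTT had 4, FA2H 5, CDC42EP3 6, MILR1 7, WNT5A 7 and EIF4E1B 9. The share of the leading transcript was compared between each knockdown and control by a two-sided exact permutation test over libraries, 12 tests in all, and none passed after Benjamini-Hochberg adjustment, 1 of them having an unadjusted p under 0.05. The permutation test had no batch term, although the groups differ in their batches. Such shares are Salmon's estimates from reads that transcripts share.

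RNGTT came nearest. RNGTT-202 held 91.7%, 96.3%, 92.2%, 97.6%, 90.6% and 85.1% of the gene's TPM in POU2AF1 knockdown replicates 1 to 6, and 99.5% to 99.7% in the 4 controls. The difference of means was -7.41 percentage points (exact p = 0.00952, adjusted p = 0.114), where 0.00476 is the smallest p that these numbers of libraries allow. In the POU2F2 knockdown the share was 99.4% ± 0.932 (SD, n = 8; adjusted p = 0.873). The transcript RNGTT-201 was at 1.31 TPM in the POU2AF1 knockdown, 0.121 TPM in the POU2F2 knockdown and 0.0977 TPM in control, while RNGTT-202 was at 15.5 ± 2.73, 28.4 ± 3.53 and 28.8 ± 1.62 TPM. In SUDHL4 the share of RNGTT-202 was 99.8% and 98.9% in the POU2F2 knockdown, 99.8% in the POU2AF1 knockdown and 97.1% in the control.

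**Figure D4:**
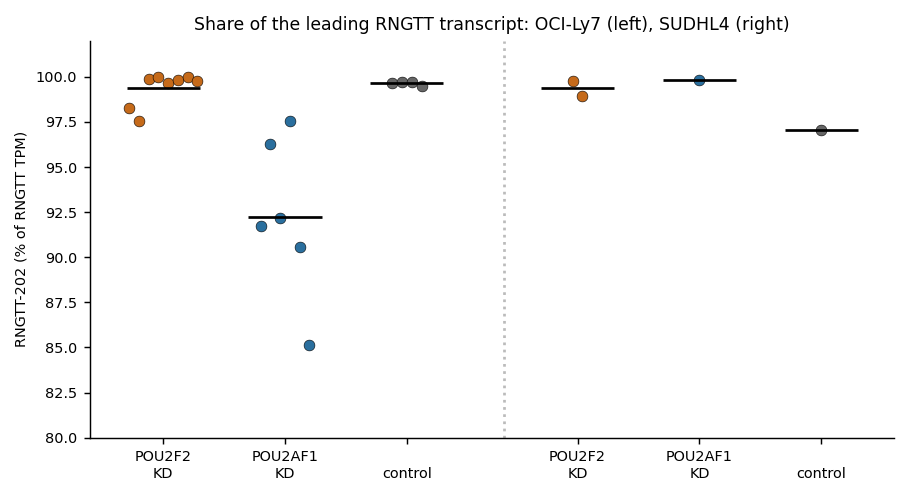
Share of RNGTT-202 in the summed TPM of RNGTT per library (points; y axis from 80%), with bars for group means, for the OCI-Ly7 groups left of the dotted line and the SUDHL4 groups right of it. The OCI-Ly7 POU2AF1 knockdown libraries spread from 85.1% to 97.6% below all controls, and the SUDHL4 POU2AF1 knockdown library is at 99.8%.

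For the other genes the leading share in the POU2AF1 knockdown and control was 36.4% ± 4.25 and 33.2% ± 1.99 for MILR1-206, and 58.9% ± 7.37 and 57.5% ± 3.28 for CDC42EP3-204. The shares of WNT5A-201 (65.2% ± 38 and 73.7% ± 7.23), FA2H-205 (27.7% ± 43.2 and 53.8% ± 12.6) and EIF4E1B-203 (41.2% ± 45.7 and 35.8% ± 33) varied widely between libraries (SD, n = 6 and 4). FA2H-205 is annotated at 292 bases and starts 48573 bases downstream of the RefSeq start. It leads by TPM, which divides by length, and held 0% in POU2AF1 knockdown replicates 1, 2, 3 and 6. Its difference from control was -26.1 percentage points by TPM and -2.4 by estimated counts. The octamer window shown above is that of FA2H-201 and FA2H-203, and which start most FA2H transcripts use was not tested. RNGTT-202 starts 103 bases and CDC42EP3-204 20 bases from the RefSeq start of the window printed for that gene.

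Genes that lie next to these 6 were read as 24 neighbours, the 2 nearest tested genes on each side. In the POU2AF1 knockdown against control 1 of the 24, PECAM1, was called by edgeR, and likewise between the knockdowns. DESeq2 called PECAM1 and SNCB against control. PECAM1, the adhesion and inhibitory receptor CD31, lies 35.3 kb from MILR1 on the opposite strand. It had 77.2 ± 18 CPM in the POU2F2 knockdown, 25 ± 10 CPM in the POU2AF1 knockdown and 81 ± 17 CPM in control (SD, n = 8, 6 and 4). The log2 change in the POU2AF1 knockdown against control was -1.51 ± 0.22 (SE; edgeR adjusted p = 0.0013), and POU2F2 over POU2AF1 knockdown gave 1.26 ± 0.23 (adjusted p = 0.031). In SUDHL4 it was at 3.05, 1.5 and 2.39 CPM in POU2F2 knockdown, POU2AF1 knockdown and control, higher between the knockdowns by 1.04 (adjusted p = 0.016, and 0.59 with all libraries), with -0.66 against control (0.17).

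SNCB, the beta-synuclein gene 0.062 kb from EIF4E1B on the opposite strand, had a log2 change of -1.60 ± 0.43 in the OCI-Ly7 POU2AF1 knockdown against control and was not called (adjusted p = 0.12). With the labels' series mark as a block in place of batch it was (-1.38, adjusted p = 0.0091), and that fit called 6 of the 24 neighbours, PECAM1, SNCB, QPCT, PRKD3 and ATL2 as lower and UIMC1 as higher, where it called 5.59% of all genes, 2.49% as higher and 3.09% as lower. QPCT (-0.98, adjusted p = 0.027), PRKD3 (-0.37, 0.012) and ATL2 (-0.37, 0.012) all flank CDC42EP3. The neighbours of WNT5A, FA2H and RNGTT had log2 values of -0.63 to 0.21 in the fit with batch and none was called in either fit.

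**Figure D5:**
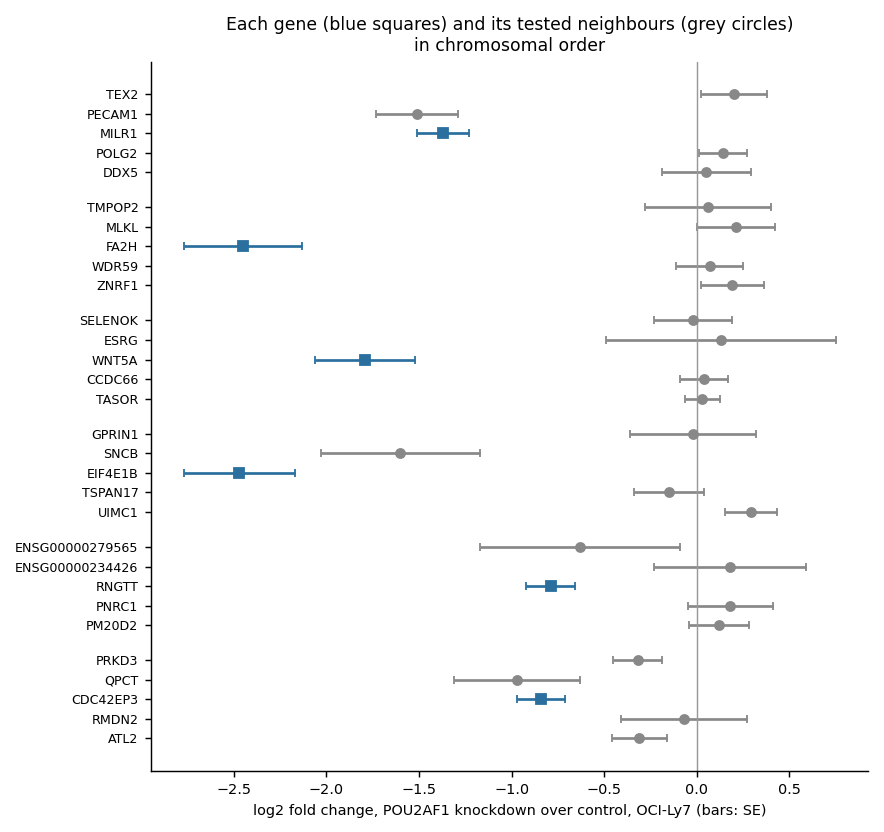
Log2 fold change of POU2AF1 knockdown over control in OCI-Ly7 (x axis, bars of 1 SE) for each of the 6 genes (blue squares) and its 2 nearest tested neighbours on each side (grey circles), in chromosomal order within each block. PECAM1 at -1.51 lies beside MILR1 and SNCB at -1.60 beside EIF4E1B, and the other neighbours lie between -0.97 and 0.29.

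The genes most like the mean pattern of the 6 over the 18 OCI-Ly7 libraries were POU2AF1 itself (r = 0.989), CABLES2 (0.965), IRF8 (0.964), GNB3 (0.961) and CD22 (0.951). These are Pearson correlations of batch-adjusted log2 CPM, given as a description, since all points share the same knockdown groups. Among the 6 the 15 pairs had r of 0.778 to 0.953. IRF8, an interferon regulatory factor active in B cells, was the most like FA2H (0.973), GNB3, a G protein subunit, the most like EIF4E1B (0.965), PECAM1 the most like CDC42EP3 (0.956), POU2AF1 the most like MILR1 (0.952), MILR1 the most like WNT5A (0.935), and FA2H the most like RNGTT (0.953).

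In SUDHL4 these companions did not all move alike. CABLES2 was at -0.14 ± 0.11 (SE) on the log2 scale in the POU2AF1 knockdown against control and was not called. In the POU2F2 knockdown against control IRF8 was at 0.55, CD22 at 0.64 and GNB3 at -0.52. None of these POU2F2 knockdown values was called with all libraries in 1 fit. In the SUDHL4 fit IRF8 and CD22 were thus higher in the POU2F2 knockdown as well as in the POU2AF1 knockdown given next. GNB3 was again lower in the POU2AF1 knockdown against control, at -2.31 on the log2 scale (edgeR adjusted p = 1.7e-12, and 0.048 with all libraries). IRF8 was higher there, at 0.43 (adjusted p = 0.0019, and 0.64 with all libraries), and so was CD22, at 0.94 (adjusted p = 1.6e-06, and 0.047 with all libraries).

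Other genes of the 6 pathways were read from lists that leave the 6 genes out. In the OCI-Ly7 POU2AF1 knockdown against control 6 of 169 tested list genes were called, 3 in each direction, where 0.887% of all genes were. Of 31 tested WNT ligands, receptors and planar polarity genes 1 was higher, PRICKLE1 (1.96 ± 0.26, adjusted p = 5.5e-04), and 1 lower, DAAM1 (-0.71 ± 0.11, adjusted p = 0.0026), both of them planar polarity genes. Of 32 sphingolipid synthesis genes 2 were higher, the ceramide synthase CERS4 (0.67 ± 0.15, adjusted p = 0.039) and the lactosylceramide synthase B4GALT5 (0.46 ± 0.091, adjusted p = 0.016). Of 18 inhibitory immunoglobulin-like receptors and their phosphatases 2 were lower, PECAM1 and the B cell co-receptor CD22 (-0.70 ± 0.11, adjusted p = 0.0026).

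None of the 29 cap-binding translation initiation genes, the 28 mRNA capping and decapping genes or the 31 CDC42 effectors and septins was called in that comparison by edgeR with batch as the term or by DESeq2, and 1 of each list had an unadjusted p under 0.05. Their medians were 0.08, 0.03 and 0.03 on the log2 scale, beside -0.004 over all genes tested. Between the knockdowns PECAM1 was the 1 list gene called by edgeR, DESeq2 called 4, and edgeR with the series mark as a block called 3 as higher and 3 as lower, where 1.26% of all genes were called (0.85% higher and 0.406% lower). In the POU2F2 knockdown against control none was called by edgeR or DESeq2, and 5 of 169 had an unadjusted p under 0.05. With the series mark as a block 18 list genes were called in the POU2AF1 knockdown against control, 12 as higher and 6 as lower, beside 2.49% and 3.09% of all genes. That fit called CMTR2 of the capping list (0.45, adjusted p = 0.013), WAS (-0.36, 0.036), SEPTIN9 (0.31, 0.016) and DOCK10 (0.38, 0.045) of the CDC42 list, and none of the cap-binding list.

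In SUDHL4 the POU2AF1 knockdown against control called 81 list genes, 45 as higher and 36 as lower, and 11 of them, all higher, were called with all libraries too. The 20 inhibitory receptors and their phosphatases had a median of 0.63 in the SUDHL4 POU2F2 knockdown against control, beside 0.008 over all genes tested. In the POU2AF1 knockdown against control their median was 1.39 beside 0.009, so a raised median was not particular to that knockdown. Among these PTPN6, the phosphatase SHP-1 that such receptors recruit, was at 4.26 ± 0.15, LAIR1 at 3.24 ± 0.38, CEACAM1 at 2.81 ± 0.37 and CD72 at 2.56 ± 0.11 (adjusted p = 1.0e-04, 0.012, 0.002 and 0.0016 with all libraries). PRICKLE1 was higher as in OCI-Ly7, at 2.70 ± 0.14 (adjusted p = 7.7e-17, and 0.0016 with all libraries). Of the other lists 3 of 27 WNT genes were higher and 6 lower, 13 and 6 of 32 sphingolipid genes, 4 and 10 of 30 cap-binding genes, 2 and 8 of 28 capping genes, and 10 and 5 of 35 CDC42 genes. These counts stand beside 18% of all genes called higher and 18.8% lower. Between the SUDHL4 knockdowns 27 list genes were higher and 28 lower, beside 13.8% and 12.4% of all genes, and in the POU2F2 knockdown against control 13 were higher and 3 lower, beside 4.79% and 2.56% of all genes. With all libraries 0 and 2 of the first and 1 and 0 of the second were called, where 0.159% of genes were called lower between the knockdowns and 0.0951% in the POU2F2 knockdown, 0.0529% as higher.

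The labelled B cell type was checked on markers. All 5 B cell and all 5 germinal centre markers were above 1 TPM in every library. The germinal centre markers summed to 449 to 599 TPM in the OCI-Ly7 POU2F2 knockdown, 275 to 418 TPM in the POU2AF1 knockdown and 540 to 647 TPM in control, and their part in the values above was not tested. Myeloid markers reached at most 1.45 TPM together. The T cell markers summed to at most 22.7 TPM in OCI-Ly7, and of 5 stromal markers DCN alone was above 1 TPM, at 79.2 to 98 TPM in SUDHL4. In bulk libraries fewer cells with a transcript and less of it per cell cannot be told apart.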

How the data were processed

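Per the submitters' processing notes, reads were trimmed with fastp and quantified with Salmon 1.5.1 on GRCh38.p13, and the authors deposited estimated counts and TPM per transcript. No transcript annotation or strand setting is named in the sources used here. Each file lists 227912 transcripts, 205964 of which matched GENCODE 29 (58592 genes, 98.36% to 98.89% of reads). Transcript counts were added up by gene, then rounded to whole numbers. Files of 1 group that differed by less than 1.5 times the sampling noise (1.122 to 1.131 times, against 2.53 to 101.6 for 53 other pairs) were merged, and OCI-Ly7 control file 3, labelled 48 h, was within 2 reads of the sum of files 1 and 2 for 92.92% of 26871 genes, so each such set counts as 1 library.

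Genes were tested with edgeR 4.0.16 (TMM scaling, robust quasi-likelihood test, low genes removed by filterByExpr at a minimum count of 10), OCI-Ly7 with batch as a term (16001 genes, biological coefficient of variation 0.297), SUDHL4 on its own (16973 genes, 0.0779) and all 22 libraries together (18918 genes, 0.298). R 4.3.3, DESeq2 1.42.0, limma 3.58.1 and Python 3.11.15 were also used, and the fits were tested on simulated data. The likeness of genes was taken on log2 CPM with a prior count of 2. Intervals of a ratio of reads come from exact binomial limits (Clopper-Pearson, 95%), and floors are 3 reads per library. The genes were given, and their pathway lists, neighbours and most similar genes were named by set rules. The genes and the lists were chosen with earlier results of these data known.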

Additional observations from a re-analysis of the deposited data

Results flagged for a closer look

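In OCI-Ly7 control cells FA2H was at 2.75 CPM in the merged batch 1 library, against 1.47 to 1.67 CPM in the 3 batch 2 libraries. The gap between that library and the next was 0.844 of the range of the 4, above Dixon's critical value of 0.829. It was the 1 value so found in 27 groups, where chance gives about 1 in 20. The library differs from the others in batch, and the part of batch in this value was not tested.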

How the results depend on the processing

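The median log2 value of the 6 genes kept its direction in OCI-Ly7 for POU2F2 over POU2AF1 knockdown (main 1.36, 1.15 to 1.5 under 8 other settings, 1.15 to 1.73 when 1 library was left out) and for the POU2AF1 knockdown against control (-1.58, with -1.19 in batch 2 alone and -2.06 in batch 1 alone, and -1.86 without POU2AF1 knockdown replicate 6 to -1.20 without the batch 1 control). For the POU2F2 knockdown against control the median ran from -0.17 to 0.00 with 1 library left out. The first of these contrasts chose the genes and the others share libraries with it, so nothing is read from the kept directions. Of the 6 genes 1 was called between the OCI-Ly7 knockdowns in batch 2 alone, 4 with a replicate block, 5 without the filter and 1 without the batch 1 control, and against control in the POU2AF1 knockdown 1, 6, 6 and 1, and 0 in batch 1 alone. In SUDHL4 4 genes were called between the knockdowns and 4 in the POU2AF1 knockdown against control, but 0 and 0 with all libraries in 1 fit, 0 with any 1 library left out (fits that also use both lines), and 2 against control by DESeq2. In the SUDHL4 POU2F2 knockdown CDC42EP3 was called with every file as its own library, a setting that counts repeated files of 1 library as replicates. Between the control cells calls are not counted, since FA2H and EIF4E1B passed the filter of that fit through OCI-Ly7 alone. MILR1 changed sign around 0 there (-0.01 with DESeq2 size factors, -0.00 by DESeq2, -0.41 to 0.17 with a library left out). EIF4E1B in the SUDHL4 POU2F2 knockdown ran from -0.20 to 0.01 with a library left out.

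The labels' series mark as a block called 18 list genes in place of 6 and 6 neighbours in place of 1, and DESeq2 called 2 neighbours. Same-numbered replicates deviated together in 5 of 10 pairs (correlation of deviations -0.84 to 0.92), so the numbers do not pair the libraries. Libraries of different groups that share a series mark did so in 13 of 13 pairs (correlation of deviations 0.58 to 0.95). The biological coefficient of variation in OCI-Ly7 was 0.146 with the series mark as a block and 0.297 with batch. The main OCI-Ly7 intervals and calls thus come from the fit with the wider spread. That fit has no term for the series mark, so libraries that deviate together count in it as separate replicates. POU2F2 knockdown replicates 4, 5 and 6, all of mark 0, differed by 2.53 to 4.62 times the sampling noise. What this does to the intervals was not tested. With a replicate block the medians were 1.29, -1.46 and -0.19, and 742 genes were called in the POU2AF1 knockdown against control. In SUDHL4 that block left no residual degrees of freedom. Over all genes 26 were called between the OCI-Ly7 knockdowns and 142 in the POU2AF1 knockdown against control. These became 85 and 327 by DESeq2, 69 and 572 with every file as its own library, 201 and 894 with the series mark as a block, 120 and 266 with POU2F2 knockdown replicate 3 in batch 1, and 4 and 7 in batch 2 alone, and batch 1 alone gave 24 against control. The lowest counts with 1 library left out were 3 and 8, both without the batch 1 control. The POU2F2 knockdown against control had 0 calls, and 5 by DESeq2, 13 with the series mark as a block and 1 with every file as its own library. In SUDHL4 4446 genes were called between the knockdowns, 6247 in the POU2AF1 knockdown against control and 1247 in the POU2F2 knockdown against control, against 2224, 3398 and 397 by DESeq2, 37, 314 and 18 with all libraries in 1 fit, and 7155, 8896 and 3761 with every file as its own library. Between the control cells 4448 genes became 8123 with every file as its own library and 8415 with the series mark. The causes were not tested.

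Leading transcript shares that were not called changed sign, in percentage points: WNT5A to -5.61 and CDC42EP3 to -0.252 with shares of estimated counts, and EIF4E1B to 1.29 in batch 2 alone. With 1 library left out they ran, in the POU2AF1 knockdown against control, from -15.5 to 4.48 for WNT5A, -6.51 to 17.4 for EIF4E1B and -0.402 to 3.15 for CDC42EP3, and in the POU2F2 knockdown from -9.36 to 0.306 for FA2H, -1.63 to 7.08 for WNT5A and -22.6 to 1.29 for EIF4E1B. The RNGTT difference in the POU2AF1 knockdown was -3.14 by estimated counts and -11.8 in batch 2 alone.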
